A study of Mus musculus with 8 samples.

Results

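The secreted Wnt antagonists and sclerostin were examined as a family of 10 genes (Sost, Dkk1, Dkk2, Dkk3, Sfrp1, Sfrp2, Sfrp4, Frzb, Wif1 and Notum) in mouse calvarial osteoblasts treated with PTH. The genes were chosen by symbol from the 47706 entries of the deposited count table, and each symbol had 1 entry. RNA was sequenced from 4 cultures treated with PTH for 24 hours and 4 treated with vehicle, all after 7 days of differentiation. Calvarial osteoblasts are bone-forming cells released by collagenase from the skullcap of newborn mice, so the cultures are mixed primary cells and not a clone. According to the study's methods, the cells were differentiated with β-glycerol phosphate and ascorbic acid and kept in low serum before PTH, given as its N-terminal fragment, was added. The labels of all 8 samples name adipogenic differentiation instead, and their titles begin with Con, which the sources used here do not explain. Strain, sex and the composition of the vehicle are not given for these cultures in the sources used here. It is also not said whether cultures came from separate preparations of cells, so that p-values measure the spread between these samples only, which may be technical.

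Wnt proteins are lipid-modified ligands. They can bring a Frizzled receptor together with the co-receptor Lrp5 or Lrp6 and so stabilize β-catenin, a signal that favors bone formation. Secreted antagonists act outside the cell at different steps. Sclerostin (Sost), a product of osteocytes, and the Dickkopf proteins Dkk1 and Dkk2 bind the co-receptors. The secreted Frizzled-related proteins (Sfrp1, Sfrp2, Sfrp4 and Frzb) and Wif1 bind the Wnt ligand itself. Notum is an enzyme that removes the lipid from the ligand. PTH is known to lower sclerostin in bone.

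Total counts per library ranged from 33605610 to 56090654, and 16736 genes passed the filter on low counts and were tested. The median of 10 osteoblast markers lay between 214 and 377 CPM (counts scaled to library size) in the 8 samples, against 4.96 to 8.17 CPM for 7 adipocyte markers. Of the osteoblast markers 3 fell and 0 rose with PTH, and of 6 adipocyte markers tested 1 fell and 0 rose. The summed level of 5 endothelial markers was at most 3.13 CPM (1 of 3 tested higher, 0 lower), and Emcn was at 0. Macrophage markers were also present, and the sum of 10 of them was 1041 to 1688 CPM in vehicle cultures and 1632 to 2113 CPM in PTH cultures (3 higher, 0 lower, 0 at zero counts). The sum of 8 chondrocyte markers was 361 to 390.2 CPM in vehicle cultures and 421 to 545 CPM in PTH cultures (3 of 7 tested higher, 0 lower). The part of these cells in the results was not tested, and in bulk samples fewer cells of a type and less RNA per cell cannot be told apart. As a check of the labels, Tnfsf11, which encodes RANKL and is induced by PTH, lay between 0.987 and 1.79 CPM in vehicle cultures and between 115 and 157 CPM in PTH cultures. Pth1r, the PTH receptor, went from 136 ± 21.1 to 83.6 ± 11.6 CPM (log2 fold change -0.70, edgeR adjusted p = 4.43e-04).

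The table of promoter sequences (RefSeq, GRCm38.p6) held 6 of the 10 genes, as windows of 300 bases from 250 before the first base of the gene to 50 from it onward. Sost and Dkk1 are shown because Sost had no counts and Dkk1 had the greatest fall among the antagonists. They are printed 5′ to 3′ along the gene, and capitals mark matches to the motifs searched. The window of Sost (chr11:101966966-101967265, minus strand) and that of Dkk1 (chr19:30549447-30549746, minus strand) read:
Sost: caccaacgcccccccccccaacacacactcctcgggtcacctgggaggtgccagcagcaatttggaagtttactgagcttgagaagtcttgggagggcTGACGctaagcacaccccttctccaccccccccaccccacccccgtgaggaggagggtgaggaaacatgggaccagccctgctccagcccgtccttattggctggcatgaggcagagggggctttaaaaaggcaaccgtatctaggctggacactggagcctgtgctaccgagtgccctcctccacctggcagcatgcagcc
Dkk1: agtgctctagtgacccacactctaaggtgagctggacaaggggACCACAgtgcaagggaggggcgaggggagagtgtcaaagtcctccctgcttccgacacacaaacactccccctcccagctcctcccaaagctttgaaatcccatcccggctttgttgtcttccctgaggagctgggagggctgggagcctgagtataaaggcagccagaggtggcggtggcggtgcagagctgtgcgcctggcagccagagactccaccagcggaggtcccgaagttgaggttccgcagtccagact
The first base of Dkk1 in RefSeq lies 169 bases downstream of the start in GENCODE M21. Windows were searched on both strands for the full cAMP response element TGACGTCA and its part TGACG, which lies within it, for the TCF/LEF motif CTTTGAT, the AP-1 motif TGANTCA, the RUNX motif TGTGGT and the MEF2 motif. The Sost window held 1 match to TGACG, starting at -152 from the first base, and the Dkk1 window held 1 match to the RUNX motif on the opposite strand, starting at -207. The windows of Dkk2, Sfrp2, Frzb and Wif1 held no match to any of the 6 motifs. Among 32851 promoter windows of the same length, TGACG was found in 20.8%, the RUNX motif in 16.8%, the AP-1 motif in 7.81%, the TCF/LEF motif in 3.73%, the MEF2 motif in 3.69% and the full cAMP response element in 1.79%. A match describes the letters of the window only.

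Of the 10 antagonist genes, 9 were tested and 6 differed between PTH and vehicle (edgeR's quasi-likelihood test, Benjamini-Hochberg adjusted p under 0.05 over all genes tested). Expression of Sfrp4, Notum and Dkk2 rose with PTH, and expression of Dkk1, Sfrp2 and Sfrp1 fell. Frzb, Wif1 and Dkk3 did not pass the threshold, and Sost could not be tested. The number of antagonists called lower was 1, namely Dkk1, without PTH replicate 2, 3 or 4 or vehicle replicate 1, 2 or 3. Over all genes tested, 45.8% passed the same threshold, with 23.3% higher and 22.5% lower, so the share of antagonists that changed is not a result about the family. In 5 of the 9 tested antagonists the treatments did not overlap, as in 43.0% of all genes tested. PTH cultures were above for 3 of them (background 21.2%) and below for 2 (background 21.8%). The changes were unequal in size, with a log2 fold change of -5.57 for Dkk1 against -0.32 for Sfrp2 and -0.19 for Sfrp1. In the order of log2 fold changes over all genes tested, Dkk1 was in place 2 from the lowest, while Sfrp4 was in place 559 from the highest, Notum in place 959 and Dkk2 in place 2561.

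**Figure D1:**
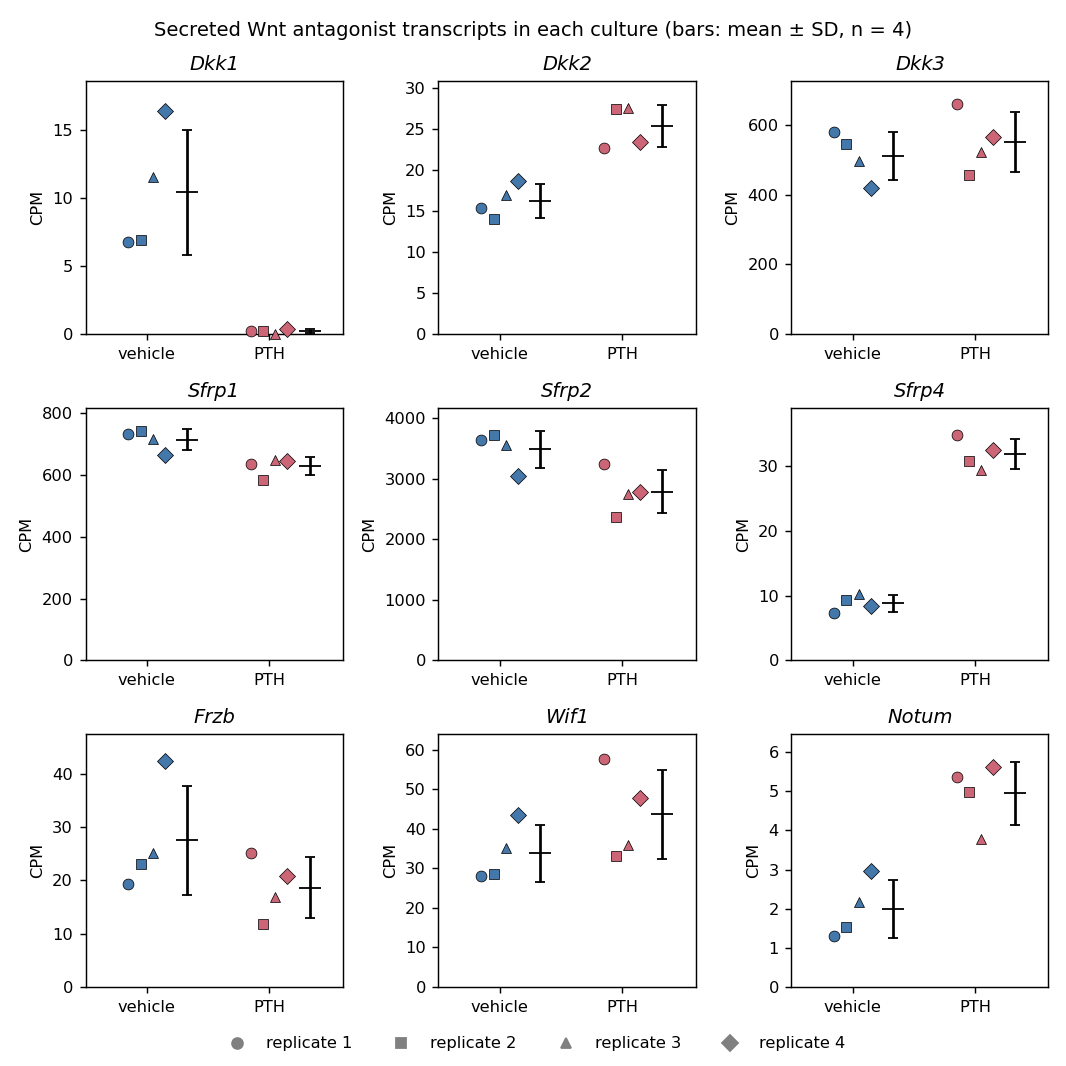
CPM of the antagonist genes in each culture (points) with the mean ± SD of 4 samples, for vehicle and PTH cultures. Dkk1 goes from 6.76 to 16.4 CPM in vehicle cultures to at most 0.380 CPM in PTH cultures, and Sfrp4, Notum and Dkk2 lie higher in all 4 PTH cultures.

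Sost, on chromosome 11 from 101962458 to 101967015 (GENCODE M21 annotation of GRCm38, as for all positions of genes given here), had 0 counts in all 8 samples. A count of 0 allows up to 3 counts, or 0.0585 to 0.0903 CPM depending on the library, which covers counting error only. A fall of Sost with PTH was therefore not detectable at this depth, and no rise above this limit was seen in PTH cultures. Other genes of the osteocyte were present. Dmp1, which encodes a matrix protein of osteocytes and late osteoblasts, had 13.4, 14.0, 18.3 and 26.5 CPM in vehicle replicates 1 to 4 and 6.71 to 9.82 CPM in PTH cultures (log2 fold change -1.12, edgeR adjusted p = 8.06e-04). Pdpn, a membrane protein of early osteocytes, rose from 145 ± 5.30 to 519 ± 60.6 CPM (log2 fold change 1.84). Fgf23, a phosphate-lowering hormone made by osteocytes, was at 0 in all 4 vehicle cultures and had 1.02 to 1.68 CPM in PTH cultures. Phex, with 32.4 to 57.5 CPM in vehicle and 20.8 to 38.7 CPM in PTH cultures, and Mepe did not pass the threshold. Thus 2 of 5 osteocyte markers rose and 1 fell.

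Of the Dickkopf genes, Dkk1 fell, Dkk2 rose and Dkk3 did not pass the threshold. Dkk1, on chromosome 19 from 30545863 to 30549665, encodes an inhibitor that binds Lrp5 and Lrp6 and, through Kremen, removes them from the cell surface. Its counts were 303, 303, 554 and 815 in vehicle replicates 1 to 4 and 12, 8, 0 and 16 in PTH replicates 1 to 4. These correspond to 6.76, 6.96, 11.6 and 16.4 CPM for vehicle and 0.234, 0.241, 0 and 0.380 CPM for PTH. The treatments did not overlap, and 1 PTH culture held no count. The mean fell from 10.4 ± 4.57 to 0.214 ± 0.158 CPM (SD, n = 4), with a log2 fold change of -5.57 (95% interval -6.63 to -4.50, edgeR adjusted p = 1.97e-06), or 47.4-fold lower. Leaving out single libraries gave values for Dkk1 between -5.99 and -5.18 on the log2 scale. Among vehicle cultures Dkk1 was also the antagonist with the widest spread, with a coefficient of variation of 43.9%.

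Dkk2, on chromosome 3 from 132085292 to 132180304, encodes a relative of Dkk1 that binds the same co-receptors. It had 15.3, 14.0, 16.9 and 18.6 CPM in vehicle replicates 1 to 4 and 22.7, 27.4, 27.5 and 23.4 CPM in PTH replicates 1 to 4, so that every PTH culture lay above every vehicle culture. The mean rose 1.56-fold from 16.2 ± 2.03 to 25.3 ± 2.56 CPM (log2 fold change 0.64, 95% interval 0.41 to 0.87, edgeR adjusted p = 4.02e-04). The ratio of Dkk2 to Dkk1 per length of exon changed mostly through Dkk1, which was 47.4-fold lower with PTH. Dkk2 was 0.743 to 1.48 times as abundant as Dkk1 in vehicle cultures and 40.4 to 74.6 times in the 3 PTH cultures with a Dkk1 count. The PTH ratios rest on 12, 8 and 16 counts of Dkk1. The summed level of the pair overlapped between the treatments, at 6.63 to 11.8 CPM per kilobase of exon for vehicle and 6.23 to 7.50 for PTH.

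Dkk3, on chromosome 7 from 112116017 to 112159057, is the most divergent member of the Dickkopf family. It was abundant, with 579, 545, 498 and 421 CPM in vehicle replicates 1 to 4 and 661, 458, 522 and 565 CPM in PTH replicates 1 to 4. The treatments overlapped widely. Its log2 fold change was 0.11 (95% interval -0.15 to 0.38, edgeR adjusted p = 0.486), an interval that reaches from 0.899-fold to 1.30-fold.

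Lrp5, Lrp6 and Kremen1 are named here as binding partners of Dkk1 or sclerostin, a choice made after their values were seen. Lrp6 rose from 236 ± 17.6 to 483 ± 21.5 CPM (log2 fold change 1.03, edgeR adjusted p = 2.84e-07). Kremen1, the receptor with which Dkk1 removes Lrp6 from the membrane, rose from 135 ± 9.04 to 209 ± 44.1 CPM (log2 fold change 0.63, edgeR adjusted p = 0.00133). Lrp5 fell slightly, with 144 to 156 CPM in vehicle cultures and 108 to 151 CPM in PTH cultures (log2 fold change -0.28, edgeR adjusted p = 0.0293), and its ranges overlapped. The call of Lrp5 held without PTH replicate 1 or vehicle replicate 4 and was lost without PTH replicate 2, 3 or 4 or vehicle replicate 1, 2 or 3 (edgeR adjusted p between 0.0517 and 0.0875). Kremen2 was at 0 in all 8 samples.

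Among the secreted Frizzled-related proteins, Sfrp4 rose, Sfrp1 and Sfrp2 fell slightly and Frzb did not pass the threshold. These proteins share a cysteine-rich domain with the Frizzled receptors, through which they bind Wnt ligands. Sfrp4, on chromosome 13 from 19623104 to 19632994, is needed for normal cortical bone, and its loss causes Pyle disease in humans. It had 7.27, 9.28, 10.3 and 8.37 CPM in vehicle replicates 1 to 4 and 34.8, 30.8, 29.4 and 32.5 CPM in PTH replicates 1 to 4, with no overlap. The coefficient of variation was 14.8% among vehicle cultures and 7.29% among PTH cultures. The mean rose 3.62-fold from 8.81 ± 1.30 to 31.9 ± 2.32 CPM (log2 fold change 1.85, 95% interval 1.61 to 2.09, edgeR adjusted p = 5.59e-08).

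Sfrp2, on chromosome 3 from 83766321 to 83774316, was the most abundant antagonist. It had 3633, 3723, 3553 and 3039 CPM in vehicle replicates 1 to 4 and 3240.3, 2367, 2748 and 2787 CPM in PTH replicates 1 to 4. PTH replicate 1 lay above vehicle replicate 4, so the treatments overlapped (exact permutation test on log2(CPM + 0.1), two-sided p = 0.0571, where the smallest p that 4 samples against 4 allow is 0.0286). The mean fell from 3487 ± 306 to 2786 ± 357 CPM (log2 fold change -0.32, 95% interval -0.56 to -0.09, edgeR adjusted p = 0.0273). This call was lost without vehicle replicate 1 (edgeR adjusted p = 0.0786), vehicle replicate 2 (0.0934), vehicle replicate 3 (0.0681), PTH replicate 2 (0.0563), PTH replicate 3 (0.0677) or PTH replicate 4 (0.0607). The gene Gm26771 lies on the other strand and shares 232 bases with Sfrp2, but it had at most 137 counts in any sample, against at least 78664 for Sfrp2.

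Sfrp1, on chromosome 8 from 23411502 to 23449632, varied least of the tested antagonists, with a coefficient of variation of 4.85% among vehicle cultures and 4.66% among PTH cultures. It had 733, 743, 716 and 665 CPM in vehicle replicates 1 to 4 and 634, 585, 647 and 645 CPM in PTH replicates 1 to 4. The highest PTH culture was just below the lowest vehicle culture. The mean fell from 714 ± 34.6 to 628 ± 29.3 CPM, and the log2 fold change of -0.19 (95% interval -0.34 to -0.03) was near the threshold (edgeR adjusted p = 0.0458). Sfrp1 was called in the fits without PTH replicate 1 (edgeR adjusted p = 0.0418) or vehicle replicate 4 (0.0461). It was not called without vehicle replicate 1, 2 or 3 or PTH replicate 2, 3 or 4, where the adjusted p was between 0.0698 and 0.141.

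Frzb, also called sFRP3, on chromosome 2 from 80411970 to 80447625, is expressed in cartilage as well as in osteoblasts. It had 19.4, 23.1, 25.1 and 42.4 CPM in vehicle replicates 1 to 4 and 25.2, 11.8, 16.9 and 20.8 CPM in PTH replicates 1 to 4. The treatments overlapped, and vehicle replicate 4 stood well above the other vehicle cultures. The log2 fold change was -0.56 (95% interval -1.10 to -0.01) with an edgeR adjusted p of 0.0908. Intervals given here are for single genes and, unlike the adjusted p, are not adjusted over all genes tested. Without PTH replicate 1 Frzb was called lower (log2 fold change -0.74, edgeR adjusted p = 0.0273), and without vehicle replicate 4 its log2 fold change was -0.27.

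Wif1 and Notum act on the ligand by other means. Wif1, on chromosome 10 from 121033960 to 121100650, holds Wnt proteins through its WIF domain. It had 28.0, 28.7, 35.1 and 43.5 CPM in vehicle replicates 1 to 4 and 57.6, 33.2, 35.9 and 47.8 CPM in PTH replicates 1 to 4, with overlap between the treatments. The log2 fold change was 0.37 (95% interval -0.02 to 0.76, edgeR adjusted p = 0.115). Wif1 was called higher without PTH replicate 2 (log2 fold change 0.49, edgeR adjusted p = 0.0408) or without vehicle replicate 4 (0.51, edgeR adjusted p = 0.0397).

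Notum, on chromosome 11 from 120653788 to 120661175, is both an inhibitor of Wnt ligands and a gene that β-catenin induces in many tissues. It was the least abundant of the detected antagonists in vehicle cultures, at 1.29, 1.54, 2.17 and 2.96 CPM in replicates 1 to 4, and had 5.36, 4.99, 3.78 and 5.63 CPM in PTH replicates 1 to 4. All 4 PTH cultures lay above all 4 vehicle cultures. The mean rose 2.48-fold from 1.99 ± 0.746 to 4.94 ± 0.816 CPM (log2 fold change 1.31, 95% interval 0.76 to 1.86, edgeR adjusted p = 0.00118). These values rest on 58 to 147 counts in vehicle libraries and 145 to 275 in PTH libraries. Notumos, like Gm26771 above named for its overlap and outside the rule for named genes, is transcribed from the other strand of the Notum locus and shares 615 bases with it. It also rose, from 10 to 29 counts to 25 to 72 counts (log2 fold change 1.73, edgeR adjusted p = 0.00958). The strand setting of the counting is not given in the sources used here. Without strand, reads from bases that the pair shares cannot be assigned to either gene. Notum has 2408 bases of exon, and the part of such reads in its rise was not tested.

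**Figure D2:**
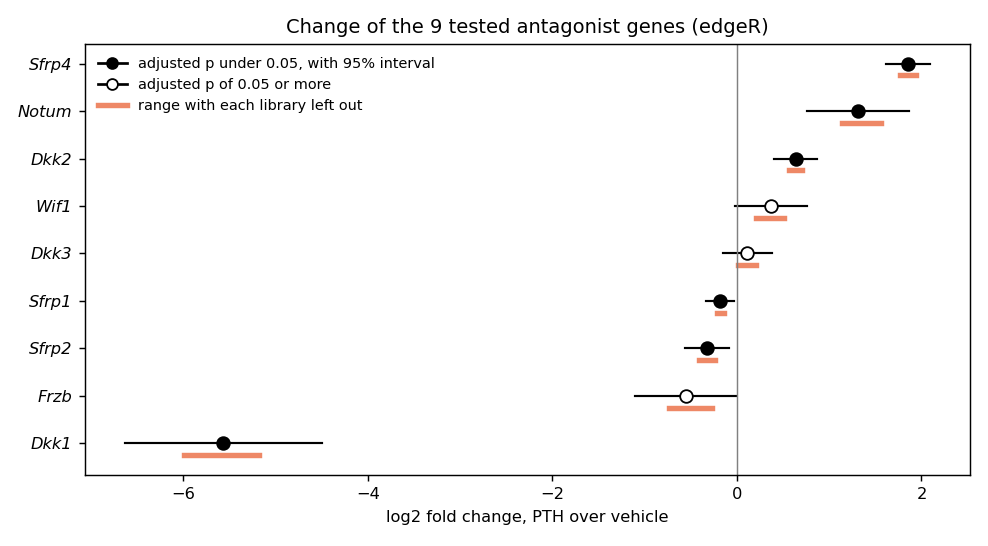
Log2 fold change (PTH over vehicle, edgeR) of the 9 tested antagonist genes (points, filled where the adjusted p was under 0.05) with 95% intervals (black lines) and the range of estimates with each library left out (orange lines). Dkk1, at -5.57, stands far from the others, and the intervals of Wif1 and Dkk3 include 0. The intervals are not adjusted over all genes tested, and that of Frzb excludes 0 although its edgeR adjusted p was 0.0908.

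Levels were compared between genes as CPM per kilobase of exon, with the mean ± SD of 4 cultures. Sfrp2 led with 1619.5 ± 142 in vehicle cultures, in place 8 of 13799 protein-coding genes tested, and was 9.91 times as abundant as Sfrp1. Sfrp1 (163 ± 7.92 CPM per kilobase) and Dkk3 (152 ± 20.4) did not differ beyond their spread. The ranges of Wif1 (13.9 ± 2.97) and Frzb (8.50 ± 3.16) overlapped, but Wif1 was above Frzb within every vehicle culture. Dkk2 (4.38 ± 0.548) and Dkk1 (4.30 ± 1.88) overlapped too and were near the median of 4.42 CPM per kilobase over those protein-coding genes. Sfrp4 (2.11 ± 0.311) and Notum (0.827 ± 0.310) were lower, without overlap with their neighbors in this order.

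In PTH cultures Sfrp2, Dkk3, Sfrp1 and Wif1 again had the highest means, with Dkk3 and Sfrp1 in exchanged places. The ranges of Dkk3 and Sfrp1 overlapped, but Dkk3 was above Sfrp1 within every PTH culture. The order also changed among the other antagonists. Sfrp4, at 7.62 ± 0.556 CPM per kilobase, reached the range of Dkk2 (6.82 ± 0.691), which in turn overlapped that of Frzb (5.76 ± 1.76). Notum, at 2.05 ± 0.339, was 23.3 times as abundant as Dkk1, at 0.0881 ± 0.0650. The ratio of Sfrp4 to Frzb went from 0.153 to 0.318 in vehicle cultures to 1.07 to 2.02 in PTH cultures. Of the summed level of the 10 genes per kilobase, Sfrp2 held 81.4% to 82.7% in vehicle and 78.3% to 79.4% in PTH cultures. The share of Sfrp4 went from at most 0.124% to at least 0.435%, and that of Dkk1 from at least 0.136% to at most 0.00948%. The sum itself overlapped between the treatments, at 1735 to 2089.7 CPM per kilobase for vehicle and 1404 to 1895 for PTH.

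**Figure D3:**
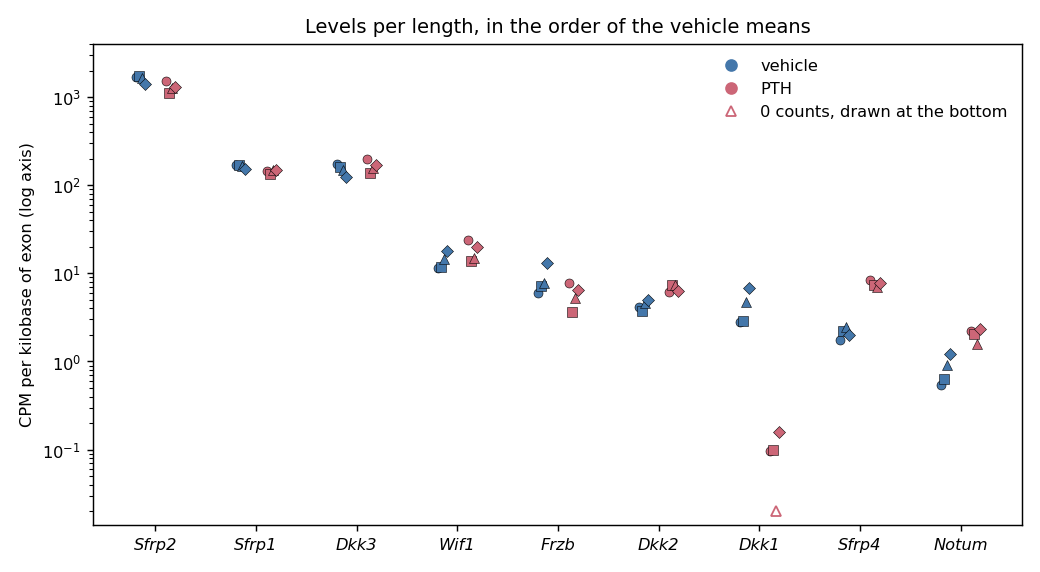
CPM per kilobase of exon (log axis) of the 9 detected antagonist genes in each culture, in the order of the vehicle means (vehicle in blue, PTH in red, symbols for replicates 1 to 4), with the culture at 0 counts of Dkk1 drawn open at the bottom. Sfrp2 is highest in all 8 cultures, and with PTH Dkk1 is the lowest of these 9 genes.

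Within treatments, some cultures were highest or lowest for several antagonists. The share of all genes tested that were highest or lowest in the same culture was not computed. This spread is therefore not a result about the family. Among vehicle cultures, replicate 4 had the highest level of Dkk1, Dkk2, Frzb, Wif1 and Notum, and the lowest of Dkk3, Sfrp1 and Sfrp2. The same culture was highest for 10 of 10 osteoblast markers, 10 of 10 macrophage markers, 2 of 4 detected osteocyte markers (Dmp1 and Phex, while Pdpn and Mepe were highest in vehicle replicate 2), 0 of 7 adipocyte markers and 0 of 8 chondrocyte markers. The summed macrophage markers had 1688 CPM there and 1041 to 1266 CPM in the other vehicle cultures. Sp7, the transcription factor osterix, had 142 CPM there and 74.8 to 109 CPM in the other vehicle cultures. Ibsp, which encodes bone sialoprotein, had 2073 CPM there and 1086 to 1308 CPM in the others. Among PTH cultures, replicate 1, the library with the most counts, was highest for Dkk3, Sfrp2, Sfrp4, Frzb and Wif1 and for 9 of 10 osteoblast markers. It was also highest for 3 of 5 osteocyte, 3 of 8 chondrocyte and 2 of 7 adipocyte markers. Of 10 macrophage markers it was highest for 2 and lowest for 5. Replicate 2, with the fewest counts, was lowest for Dkk3, Sfrp1, Sfrp2, Frzb and Wif1 and for 7 of 10 osteoblast markers, and highest for 8 of 10 macrophage markers. It was also lowest for 5 of 5 osteocyte, 5 of 8 chondrocyte and 2 of 7 adipocyte markers. The part of depth or of cell composition in this spread was not tested. Between the treatments Sp7 fell, to 25.9 to 33.9 CPM in PTH cultures (log2 fold change -1.78, edgeR adjusted p = 4.45e-06). Of the 10 osteoblast markers 3 fell, 0 rose and 7 did not pass the threshold. Their sum overlapped between the treatments, at 76799 to 87850 CPM for vehicle and 73334 to 106094 CPM for PTH.

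The other genes of the pathway were described from 5 lists that hold 75 genes, of which 59 were tested, 21 rose and 20 fell. Over all genes tested, 23.3% rose and 22.5% fell (45.8% together), the background for the counts of each list. Of the other extracellular regulators, 2 of 12 tested genes rose (4 without vehicle replicate 1) and 3 fell. The median log2 fold change of this list was 0.02, against -0.000814 over all genes tested. Rspo3 and Rspo2 encode R-spondins, which amplify Wnt signals. Rspo3 fell from 176 ± 9.92 to 80.2 ± 4.65 CPM (log2 fold change -1.13, edgeR adjusted p = 6.23e-08), and Rspo2 fell from 144 ± 13.6 to 74.0 ± 8.44 CPM (-0.96, edgeR adjusted p = 4.96e-06). Trabd2b, a protease that cuts Wnt ligands, rose by 0.50 on the log2 scale (edgeR adjusted p = 1.45e-04), and Cthrc1, a secreted collagen-like protein, rose by 0.44 (edgeR adjusted p = 0.00122). Dkk4 was at 0 in all samples, and Sfrp5 had at most 4 counts in any. Sostdc1, the closest relative of sclerostin and named for that after its values were seen, had 2.02 ± 0.246 CPM in vehicle and 1.52 ± 0.216 CPM in PTH cultures (log2 fold change -0.41, edgeR adjusted p = 0.151).

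Of the co-receptors and genes of receptor turnover, 5 of 13 tested genes rose and 4 fell (2 without PTH replicate 3, 2 without vehicle replicate 2 and 2 without vehicle replicate 3), with a median log2 fold change of -0.03. Lgr4, a receptor for R-spondins, rose by 1.13 on the log2 scale (edgeR adjusted p = 1.95e-06). Lrp4, which anchors sclerostin, rose from 41.0 ± 2.01 to 85.2 ± 6.89 CPM (log2 fold change 1.05, edgeR adjusted p = 2.33e-07). The ubiquitin ligases Znrf3 and Rnf43 remove Frizzled receptors from the membrane. Znrf3 had a log2 fold change of -0.53 (edgeR adjusted p = 0.00433) and Rnf43 of -0.96 (edgeR adjusted p = 0.0343). Rnf43 rests on at most 74 counts in any sample and did not pass without PTH replicate 1 or 3 or without vehicle replicate 2, 3 or 4 (edgeR adjusted p between 0.0651 and 0.0973).

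All 9 tested Frizzled genes changed, 4 higher and 5 lower, with a median log2 fold change of -0.51, beside a background of 45.8% of genes called. Fzd6 rose from 14.4 ± 1.74 to 56.5 ± 5.72 CPM (log2 fold change 1.97, edgeR adjusted p = 1.93e-08), and Fzd3 rose by 1.47 on the log2 scale (edgeR adjusted p = 2.58e-06). Fzd8 lay between 96.7 and 114 CPM in vehicle and between 16.1 and 23.4 CPM in PTH cultures (log2 fold change -2.36, edgeR adjusted p = 7.91e-09). Fzd5 lay between 86.2 and 98.7 CPM in vehicle and between 19.6 and 27.1 CPM in PTH cultures (log2 fold change -2.10, edgeR adjusted p = 9.09e-09).

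Of the ligands and genes of ligand secretion, 6 of 14 tested rose and 2 fell (4 without PTH replicate 1, 1 without PTH replicate 3 and 1 without vehicle replicate 1), with a median log2 fold change of 0.33. Wnt4 lay between 0.343 and 0.647 CPM in vehicle and between 26.7 and 41.2 CPM in PTH cultures (log2 fold change 6.06, edgeR adjusted p = 2.71e-10). Wnt11 rose by 3.13 on the log2 scale (edgeR adjusted p = 4.29e-08). Wnt5a (log2 fold change -0.42, edgeR adjusted p = 0.00250) and Wnt10b (-0.58, edgeR adjusted p = 0.0193) fell, and Wnt10b did not pass without PTH replicate 3 (edgeR adjusted p = 0.0551) or vehicle replicate 1 (0.0586).

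Of the intracellular feedback and target genes, 4 of 11 tested rose and 6 fell, with a median log2 fold change of -0.35. Axin2, a feedback inhibitor that β-catenin induces, had 7.41, 9.30, 10.4 and 9.23 CPM in vehicle replicates 1 to 4 and 3.18, 3.31, 3.76 and 5.32 CPM in PTH replicates 1 to 4 (log2 fold change -1.22, edgeR adjusted p = 1.44e-04), with no overlap. The transcription factors of the pathway moved apart. Tcf7 fell from 38.4 ± 11.4 to 9.09 ± 1.99 CPM (log2 fold change -2.07, edgeR adjusted p = 6.41e-06), and Lef1 rose from 1.37 ± 0.193 to 10.3 ± 2.22 CPM (2.91, edgeR adjusted p = 1.15e-07). Cyp1b1, listed among the targets, rose by 1.41 on the log2 scale (edgeR adjusted p = 1.13e-08).

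**Figure D4:**
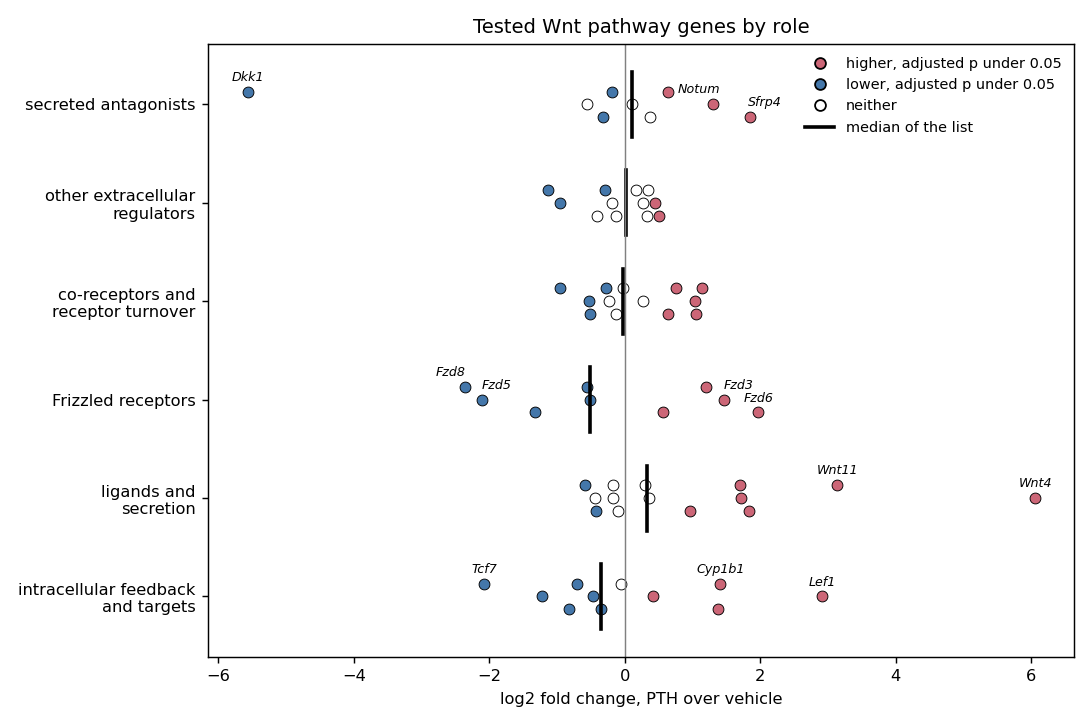
Log2 fold change (PTH over vehicle, edgeR) of each tested gene among the secreted antagonists and in 5 lists of other Wnt pathway genes, with the median of each list as a black bar. Red points were higher and blue points lower at an adjusted p under 0.05, and Dkk1 (-5.57) and Wnt4 (6.06) lie furthest from 0.

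The genes outside the family whose level followed that of Dkk1 most closely over the 8 samples were Ept1, Naa35, Trim8, Garem and Snx27 (Pearson r of log2 CPM between 0.989 and 0.994, given as a description). All 5 were lower in PTH cultures, with log2 fold changes between -1.21 and -0.36. Over the same 8 libraries, 349 of 16727 genes had an r of at least 0.95 with Dkk1, and these samples share the difference between the treatments.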

How the data were processed

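Polyadenylated RNA of 8 cultures was sequenced, and the authors aligned reads with HISAT2 to mm10 (GRCm38) and assembled transcripts with StringTie, whose companion script gave the deposited counts per gene. Versions and the read length given to that script, which scales the counts, are not given in the sources used here. The count table was analysed as deposited, with samples grouped by their labels. Counts were filtered with filterByExpr (minimum count 10, minimum total 15), scaled by TMM and tested with edgeR 4.0.16 (quasi-likelihood, R 4.3.3) and Benjamini-Hochberg adjustment over all genes tested. Single values were compared by exact permutation on log2(CPM + 0.1). Scripts were tested on simulated data. Library totals are given in the results. Levels between genes were set per kilobase of exon (GENCODE M21). Shared transcript sequence was searched with blastn 2.17.0 (at least 95% identity over 150 bases). Alternatives were DESeq2 1.42.0, its size factors in edgeR, no filter, the sample number as a block, each library left out, counts halved, entries of 1 symbol summed, a log2 change of 1 or more as an added criterion, and, for levels, the longest transcript.

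The antagonist genes, the pathway lists and the marker lists were chosen with earlier results of these data known. Named genes were all 10 antagonists, from each of the 5 pathway lists the 2 called genes with the largest rise and the 2 with the largest fall, Tnfsf11 and Pth1r, and the 5 genes whose log2 CPM correlated best with that of the called antagonist with the largest change. Genes named outside this rule are marked as such, except members of the marker lists, genes that overlap an antagonist and genes at or near 0 counts.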

Additional observations from a re-analysis of the deposited data

Results flagged for a closer look

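In 4 of 89 groups of 4 samples, 1 sample lay farther from the others than Dixon's 95% critical value allows, where chance gives about 1 in 20. None of the antagonist genes was among them. Tnfsf11 had 157 CPM in PTH replicate 1 and 115 to 120.2 CPM in the other PTH cultures. Cyp1b1 had 559 CPM in the same culture and 483 to 494 CPM in the others. Fzd8 had 96.7 CPM in vehicle replicate 4 and 112 to 114 CPM in the other vehicle cultures. Znrf3 had 11.5 CPM in vehicle replicate 1 and 12.2 to 12.3 CPM in the others.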

How the results depend on the processing

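Dkk1, Dkk2, Sfrp4 and Notum kept their direction and an adjusted p under 0.05 in all 14 refits, and no result listed here changed direction. When a log2 change of 1 or more in size was also required, 1882 genes were called (1232 higher, 650 lower), against 7669 without it, and 3 antagonists (2 higher, 1 lower). With each library left out, 1 to 4 antagonists were called lower, 3 to 4 higher and 4 to 7 in all, and 6671 to 8074 genes were called, from refits with fewer samples. No pairing by sample number was detected, as the deviations of same-numbered cultures correlated between -0.0409 and 0.0274. Of the 8 samples, 1 correlated best with its own number. This check cannot show whether same-numbered cultures shared a preparation of cells. With the replicate block, 1 antagonist (Dkk1) was called lower and 7003 genes were called. The adjusted p was then 0.134 for Sfrp1 and 0.0669 for Sfrp2. Sfrp1 was also lost with DESeq2 size factors in edgeR (edgeR adjusted p = 0.0720) and with counts halved (0.0606). The cause was not tested. DESeq2 called 6 antagonists and 7893 genes. No antagonist changed place in the vehicle order of levels with the longest transcript or with DESeq2 size factors. Low counts limit what can be said of Sost, at 0 counts, and of Dkk1 in PTH cultures, at no more than 16 counts. Whether more depth would detect Sost was not tested.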
